A study of Mus musculus with 19 samples.

Results

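Lymphoid-primed progenitor genes are genes that early blood progenitors switch on as they take the first steps towards B and T cells. The 6 genes described here were chosen by name as Il7r, Rag1, Rag2, Dntt, Tespa1 and Satb1, out of 24210 named genes in the deposited count table, and each was represented by its accession with the highest mean count over 19 libraries. Il7r is the alpha chain of the interleukin-7 receptor, which carries survival and growth signals in early lymphoid cells. Rag1 and Rag2 together form the recombinase that cuts antigen receptor genes, and Dntt, terminal deoxynucleotidyl transferase, adds untemplated bases at the cut ends. Tespa1 is a thymocyte protein of T cell receptor signaling, and Satb1 is a nuclear protein that organises chromatin loops and is known in mouse progenitors for a part in lymphoid specification.

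RNA was measured by polyA sequencing of primary, uncultured mouse LSK cells of strain C57BL/6. LSK cells carry no lineage markers (lin-) and are positive for Sca and cKit; the population holds blood stem cells and early multipotent progenitors. Idh2 R140Q;Flt3-ITD mice with acute myeloid leukemia had received AG-221, an inhibitor of mutant IDH2 (4 libraries), or vehicle (3 libraries). Mice labelled Tet2-/-;Flt3-IDT, a spelling read here as Flt3-ITD, were leukemic too and had received 5-Aza, a hypomethylating agent (4 libraries), or vehicle (4 libraries). Wild type (WT) mice, with no treatment, gave 4 libraries. AG-221 went in by mouth 2 times a day over 4 to 5 weeks; the labels name a dose of 100 mg/kg for single-agent use and 40 mg/kg for combinations, without saying which one a library received. The 5-Aza injections of 5 mg/kg were given over 4 cycles of 21 days, on 5 days per cycle, and the series text names the agent as Decitabine as well. All leukemic groups share a Flt3 allele, and the sources used here give no age, no leukemic burden and no Cre or promoter for the Tet2 and Idh2 alleles. The labels do not say that each library is a separate animal, so the p-values measure the spread between libraries.

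Libraries held 9913084 to 11988449 counts with AG-221, 13128950 to 20140641 with IDH2-FLT3 vehicle, 12109035 to 13133042 with 5-Aza, 9635795 to 20383132 with TET2-FLT3 vehicle and 10176915 to 12253599 in WT. Libraries are called here by the ends of their column headers (AG1, V3-2), and V3-2 and V5-2 repeat the headers of V3 and V5. TET2-FLT3 vehicle library V1 stood apart, with 9.5% of its counts in 1 unnamed accession and 12088 accessions detected, the fewest of all. The sort could not be checked on its own markers, since the accessions of Kit held 4 counts over 19 libraries and those of Ly6a, which encodes Sca, held 0, as did those of Itgam. Among genes with several accessions 61.6% of accessions had 0 counts in all libraries, against 18.65% of accessions that were the only one of their gene. Il7r, Rag1, Rag2 and Tespa1 have 1 accession each in the table. Dntt has 2, of which the other held 0 counts, and Satb1 has 4, of which the others held 24, 3 and 2 counts against 906 for the one used, so the absolute levels of Dntt and Satb1 may be understated.

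The start regions of 3 members are shown because Il7r and Rag1 carry binding words of lymphoid factors there and Rag2, the neighbour of Rag1 on chromosome 2, carries none; the 5 windows of Satb1 are not shown. RefSeq start windows on build GRCm38.p6, 250 bases before to 50 after the start, matched 5 of the 6 members. Capitals mark the RUNX word TGTGGT, the ETS word TTCCTG and the E-box CAGCTG, searched on both strands; the sequences read 5′ to 3′ along the gene's own strand. The Il7r window lies at chr15:9529827-9530126 on the minus strand, the Rag1 window at chr2:101649483-101649782 on the minus strand and the Rag2 window at chr2:101624462-101624761 on the plus strand.
Il7r: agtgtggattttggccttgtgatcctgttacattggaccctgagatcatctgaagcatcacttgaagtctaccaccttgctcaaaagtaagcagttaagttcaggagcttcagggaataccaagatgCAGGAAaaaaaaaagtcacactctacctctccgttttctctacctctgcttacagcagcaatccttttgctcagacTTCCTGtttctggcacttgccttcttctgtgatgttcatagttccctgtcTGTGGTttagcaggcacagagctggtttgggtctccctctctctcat
Rag1: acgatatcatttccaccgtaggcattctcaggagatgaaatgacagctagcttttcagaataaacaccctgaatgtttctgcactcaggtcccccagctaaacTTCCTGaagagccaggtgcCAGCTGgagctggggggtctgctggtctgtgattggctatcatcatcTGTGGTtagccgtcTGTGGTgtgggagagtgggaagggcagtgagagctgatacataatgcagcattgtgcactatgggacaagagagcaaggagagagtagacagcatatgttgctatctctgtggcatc
Rag2: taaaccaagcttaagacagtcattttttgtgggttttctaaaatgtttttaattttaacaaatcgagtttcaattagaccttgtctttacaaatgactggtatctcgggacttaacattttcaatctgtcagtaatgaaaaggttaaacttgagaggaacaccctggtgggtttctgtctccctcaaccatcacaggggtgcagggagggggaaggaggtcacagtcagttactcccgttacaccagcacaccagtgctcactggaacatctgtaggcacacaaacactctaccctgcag
Counted from 1 at the first transcribed base, with no position 0, the Il7r window holds the RUNX word at 4, the ETS word at -47 and its reverse complement at -123. The Rag1 window holds the RUNX word at -81 and -67, the ETS word at -147 and the E-box at -128. The STAT word TTCNNNGAA at -142 of Il7r and the Ikaros word TGGGAA at -52 of Rag1 are not in capitals. Of the 5 Satb1 windows, 1 held the ETS word, the E-box at 2 places and the Ikaros word, another held the Ikaros word, and 3 held none. Neither the Rag2 window nor that of Dntt held any of these words. Of 32851 mouse start windows, 16.8% held the RUNX word, 30.6% the ETS word and 16.3% the E-box, 25.6% the Ikaros word and 8.30% the STAT word, so the words alone are not rare. A match describes letters in the window and is not a measured binding site.

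All 6 members were lower in IDH2-FLT3 vehicle cells than in WT cells, where 10.4% of all tested accessions were lower, and 4 of 6 were lower in TET2-FLT3 vehicle cells, where 5.7% of accessions were. After AG-221 the T cell signaling gene Tespa1 was higher than with vehicle, as were 4.35% of accessions, and did not differ from WT beyond the spread, and the recombinase genes Rag1 and Rag2 were lower than in WT, as were 1.67% of accessions. After 5-Aza 0 members passed the edgeR test against vehicle, which 1.88% of accessions passed. At an unadjusted p under 0.05 there were 2 members, against 12.5% of accessions. After 5-Aza Il7r was lower than in WT, as were 1.08% of accessions. All 15 leukemic libraries, treated or not, lay below every WT library for Il7r, Rag1 and Satb1. How much of everything tested did so was not counted. Group by group, 20% of everything tested lay wholly below WT with IDH2-FLT3 vehicle and 11.5% with TET2-FLT3 vehicle. These shares were 8.85% with AG-221 and 13.4% with 5-Aza. In bulk RNA, fewer cells of a kind and less RNA per cell cannot be told apart.

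**Figure D1:**
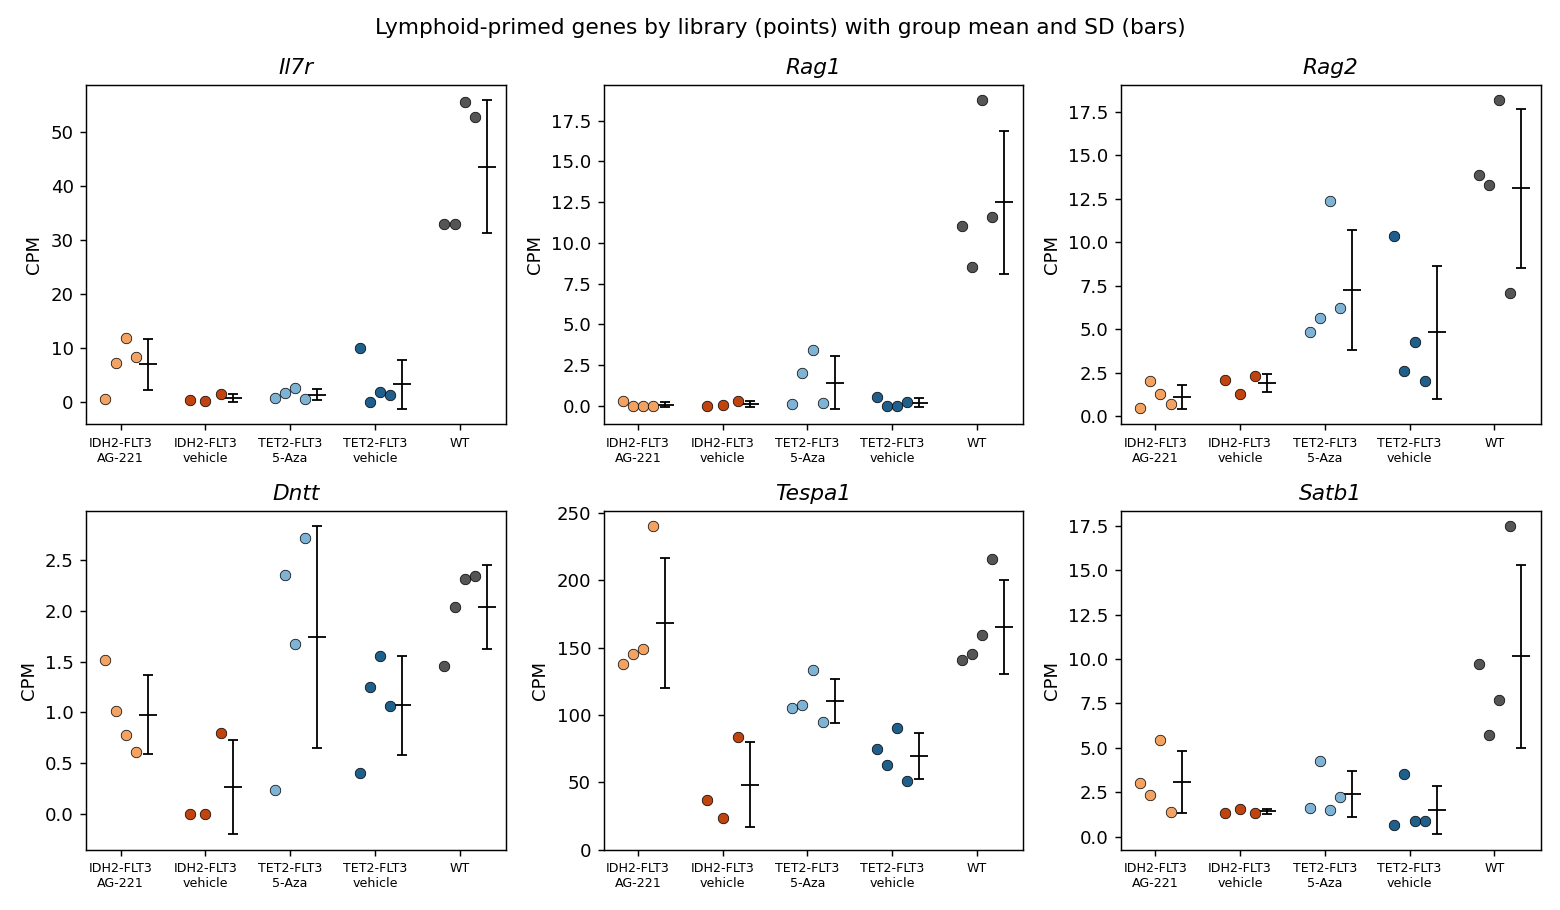
CPM (counts scaled to library size times its TMM factor, linear axes) of each member in every library (points, 1 per library), with the group mean and SD as bars; groups run from IDH2-FLT3 with AG-221 to WT. WT libraries lie above all leukemic libraries for Il7r, Rag1 and Satb1, and the AG-221 and WT libraries overlap for Tespa1. How much of everything tested separates from WT in this way was not counted.

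CPM are counts scaled to the library total times its TMM factor. Il7r, the receptor chain, had 0.503, 7.16, 11.8 and 8.39 CPM in AG-221 libraries AG1, AG12, AG13 and AG8. In IDH2-FLT3 vehicle libraries V3, V3-2 and V9 it had 0.422, 0.240 and 1.52 CPM. It had 0.728, 1.70, 2.58 and 0.542 CPM in the 5-Aza libraries, against 9.96, 0, 1.82 and 1.39 CPM in TET2-FLT3 vehicle libraries V1, V19, V5 and V5-2. The 4 WT libraries had 33.0, 33.0, 55.5 and 52.8 CPM. The highest leukemic library, AG13, was below the lowest WT library. In the AG-221 group 3 libraries were above every IDH2-FLT3 vehicle library and AG1 was within their range, while in the TET2-FLT3 vehicle group V1 alone was near the upper AG-221 libraries. The log2 fold change against WT was -5.93 ± 1.20 with IDH2-FLT3 vehicle (SE here and below; edgeR quasi-likelihood test with Benjamini-Hochberg adjustment over all accessions, adjusted p = 0.00214) and -3.78 ± 0.94 with TET2-FLT3 vehicle (adjusted p = 0.0160).

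Il7r after AG-221 was 3.29 ± 1.09 log2 units above IDH2-FLT3 vehicle, which did not pass in edgeR (adjusted p = 0.0583); adjusted p was 0.0259 in DESeq2 and 0.0445 in edgeR without library AG1. Against WT the AG-221 value was -2.64 ± 0.89 (edgeR adjusted p = 0.143), without overlap of the libraries. After 5-Aza Il7r stood at -1.17 ± 0.91 against TET2-FLT3 vehicle (edgeR adjusted p = 0.647), and this value was 0.31 without library V1. Against WT the 5-Aza libraries were lower, at -4.96 ± 1.0 (edgeR adjusted p = 0.0121), a call lost without AZ10 (adjusted p = 0.0559) or AZ17 (adjusted p = 0.0612). The call of Il7r in TET2-FLT3 vehicle against WT was lost without library wt4 (edgeR adjusted p = 0.0518) and with no filter on low counts (0.0659).

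Rag1, the catalytic recombinase subunit, was nearly absent from leukemic libraries. It had 0.302, 0, 0 and 0 CPM in the AG-221 libraries, against 0, 0.048 and 0.321 CPM in libraries V3, V3-2 and V9 of IDH2-FLT3 vehicle. It had 0.0809, 2.02, 3.42 and 0.180 CPM in 5-Aza libraries AZ10, AZ11, AZ16 and AZ17, against 0.546, 0, 0 and 0.246 CPM in the TET2-FLT3 vehicle libraries. WT libraries had 11.0, 8.53, 18.7 and 11.6 CPM. Only AZ11 and AZ16 among the leukemic libraries exceeded 1 CPM, and both stayed below the lowest WT library. Summed over each group Rag1 had 3 counts with AG-221, 5 with IDH2-FLT3 vehicle, 73 with 5-Aza, 10 with TET2-FLT3 vehicle and 628 in WT.

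The log2 fold change of Rag1 against WT was -6.63 ± 1.36 with IDH2-FLT3 vehicle (edgeR adjusted p = 0.00233) and -6.05 ± 1.16 with TET2-FLT3 vehicle (edgeR adjusted p = 0.00298). With AG-221 Rag1 was lower than in WT as well (edgeR adjusted p = 0.00254), and the ratio of its 3 counts to those of WT, corrected for library size, was 0.00539 with a 95% counting interval of 0.00111 to 0.0158. After 5-Aza Rag1 was 2.94 ± 1.10 above TET2-FLT3 vehicle, which did not pass (edgeR adjusted p = 0.246; unadjusted p = 0.0143), and at -3.11 ± 0.95 against WT, which did not pass either (edgeR adjusted p = 0.104). The 5-Aza group overlapped its vehicle group because AZ10 and AZ17 lay within the vehicle range.

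Rag2, the partner subunit, had counts in every library. It had 0.503, 2.02, 1.27 and 0.693 CPM in the AG-221 libraries, against 2.11, 1.30 and 2.33 CPM in libraries V3, V3-2 and V9 of IDH2-FLT3 vehicle. It had 4.85, 5.66, 12.4 and 6.23 CPM in the 5-Aza libraries, against 10.4, 2.59, 4.25 and 2.05 CPM in the TET2-FLT3 vehicle libraries. WT libraries had 13.9, 13.3, 18.2 and 7.09 CPM. Both IDH2-FLT3 groups lay wholly below WT, whereas AZ16 and V1 reached into the WT range. IDH2-FLT3 vehicle was lower than WT, at -2.78 ± 0.62 (edgeR adjusted p = 0.00408) and AG-221 at -3.53 ± 0.58 (edgeR adjusted p = 0.00148), and AG-221 did not differ from its vehicle beyond the spread (-0.75 ± 0.59, edgeR adjusted p = 0.396). TET2-FLT3 vehicle was at -1.46 ± 0.53 against WT (edgeR adjusted p = 0.0792), and without library V1 the value was -2.14 (adjusted p = 0.0174). Rag2 passed in this comparison in DESeq2 (adjusted p = 0.0301) and limma-voom (0.0306). After 5-Aza Rag2 was 0.62 ± 0.52 above vehicle (edgeR adjusted p = 0.677) and -0.85 ± 0.51 against WT (edgeR adjusted p = 0.423).

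The Rag2 gene overlaps Iftap in the RefSeq annotation of GRCm38, and the strand setting of the counting is not given in the sources used here, so reads of the pair cannot be told apart. Iftap averaged 89.1 ± 15.7 CPM with AG-221, 61.0 ± 18.1 with IDH2-FLT3 vehicle, 101.8 ± 32.4 with 5-Aza, 74.9 ± 14.2 with TET2-FLT3 vehicle and 73.8 ± 16.2 in WT (SD, n = 4, 3, 4, 4 and 4). No comparison of Iftap passed in edgeR, with adjusted p from 0.195 to 0.969, and how much of the Rag2 count comes from it was not tested.

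**Figure D2:**
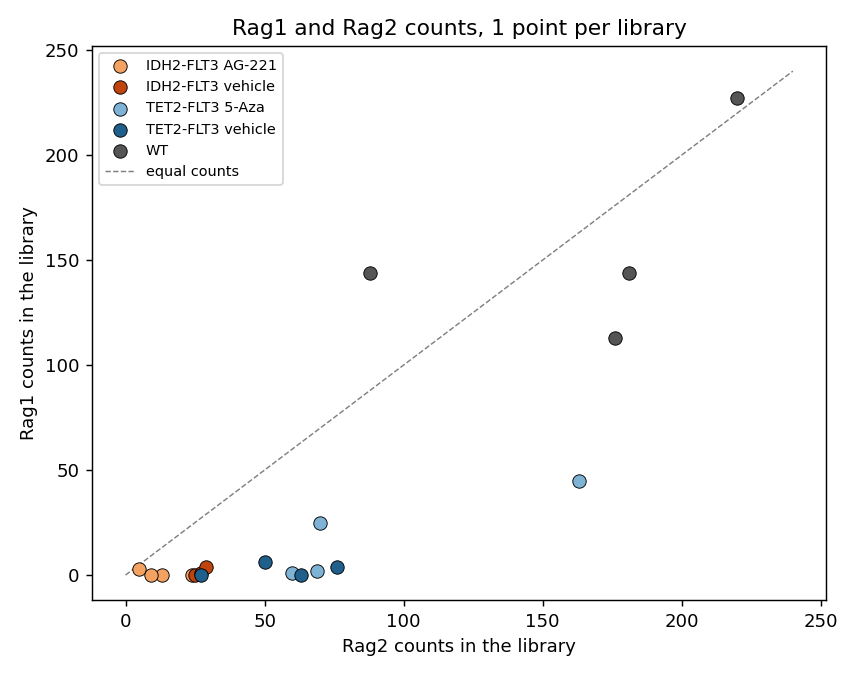
Rag1 counts (vertical axis) against Rag2 counts (horizontal axis), 1 point per library, coloured by group, with a dashed line of equal counts. WT libraries scatter about the line, with 64.2 to 163.6 Rag1 counts per 100 Rag2 counts, and all leukemic libraries lie below it. Rag2 counts may hold reads of the overlapping gene Iftap.

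Rag1 and Rag2 sit side by side and are needed together for recombination, yet their counts stood in different proportion in leukemic and WT cells. Per 100 Rag2 counts there were 5.88 Rag1 counts with AG-221 (95% exact counting interval 1.17 to 18.2), 6.17 with IDH2-FLT3 vehicle (1.95 to 15.0), 20.2 with 5-Aza (15.5 to 26.0), 4.63 with TET2-FLT3 vehicle (2.19 to 8.68) and 94.4 in WT (84.5 to 105.5). The intervals cover counting error only. The Rag2 counts may hold reads of the overlapping gene Iftap, and the part of such reads in the ratio was not tested. AG1, with 3 Rag1 and 5 Rag2 counts, gave the highest leukemic ratio. The 5-Aza value came from AZ11, with 25 Rag1 and 70 Rag2 counts, and AZ16, with 45 and 163, while AZ10 had 1 and 60 and AZ17 had 2 and 69. This pair of genes was set side by side after their values were seen, and the ratio was not tested.

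Dntt, the enzyme that diversifies the joined ends, was scarce everywhere. It had 1.51, 1.01, 0.781 and 0.616 CPM in the AG-221 libraries, against 0, 0 and 0.802 CPM in libraries V3, V3-2 and V9 of IDH2-FLT3 vehicle. It had 0.243, 2.34, 1.67 and 2.71 CPM in the 5-Aza libraries, against 0.409, 1.25, 1.55 and 1.07 CPM in the TET2-FLT3 vehicle libraries. WT libraries had 1.46, 2.04, 2.31 and 2.34 CPM. The IDH2-FLT3 vehicle group alone lay wholly below WT, with V3 and V3-2 at 0. It was lower than WT, at -2.97 ± 1.0 (edgeR adjusted p = 0.0411), a call lost without V3 (adjusted p = 0.138), V3-2 (0.134) or any single WT library (0.0563 to 0.0794), with the compared groups fitted alone (0.0562), and with V3 and V3-2 summed as 1 library (log2 fold change -2.51, adjusted p = 0.138). In the other comparisons Dntt did not pass: 1.91 ± 0.99 for AG-221 against vehicle (edgeR adjusted p = 0.201), 0.67 ± 0.80 for 5-Aza against vehicle (0.787) and -0.90 ± 0.80 for TET2-FLT3 vehicle against WT (0.492). Against WT, AG-221 stood at -1.05 ± 0.81 (edgeR adjusted p = 0.668) and 5-Aza at -0.23 ± 0.79 (0.911).

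Tespa1, the T cell receptor signaling protein, was the abundant member. It had 137.8, 145.3, 149 and 240.5 CPM in AG-221 libraries AG1, AG12, AG13 and AG8, against 37.2, 23.6 and 83.9 CPM in libraries V3, V3-2 and V9 of IDH2-FLT3 vehicle. It had 105.2, 107.8, 133.3 and 94.8 CPM in the 5-Aza libraries, against 74.9, 62.8, 90.4 and 50.8 CPM in the TET2-FLT3 vehicle libraries. WT libraries had 140.8, 145, 159.2 and 216.2 CPM. Every AG-221 library was above every vehicle library of its line and within or near the WT range, and every 5-Aza library was above every TET2-FLT3 vehicle library and below every WT library. Tespa1 was lower than WT, at -1.78 ± 0.35 with IDH2-FLT3 vehicle (edgeR adjusted p = 0.00174) and at -1.25 ± 0.31 with TET2-FLT3 vehicle (edgeR adjusted p = 0.0162; 0.0757 without library wt4).

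Tespa1 was 1.80 ± 0.35 log2 units higher with AG-221 than with IDH2-FLT3 vehicle (edgeR adjusted p = 0.00796). The call was lost without library V3 (adjusted p = 0.0569) and with the compared groups fitted alone (0.0704). That last fit gave 0 calls over everything tested in this comparison, against 1139 in the full fit, so its loss is not particular to Tespa1. AG-221 differed from WT by 0.02 ± 0.31 (edgeR adjusted p = 0.987), and the sign of this value depended on single libraries. 5-Aza differed from TET2-FLT3 vehicle by 0.66 ± 0.31, which did not pass (edgeR adjusted p = 0.383; unadjusted p = 0.0441) although the libraries did not overlap, and stood against WT at -0.58 ± 0.31 (edgeR adjusted p = 0.353).

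Satb1, the chromatin organiser, was low in every leukemic group. It had 3.02, 2.36, 5.47 and 1.39 CPM in the AG-221 libraries, against 1.35, 1.59 and 1.36 CPM in libraries V3, V3-2 and V9 of IDH2-FLT3 vehicle. It had 1.62, 4.29, 1.52 and 2.26 CPM in the 5-Aza libraries, against 0.682, 3.55, 0.878 and 0.902 CPM in TET2-FLT3 vehicle libraries V1, V19, V5 and V5-2. WT libraries had 9.73, 5.74, 7.68 and 17.5 CPM. The highest leukemic library, AG13, came close to the lowest WT library but did not reach it, and each treated group overlapped its vehicle group. Satb1 was lower than WT, at -2.81 ± 0.66 with IDH2-FLT3 vehicle (edgeR adjusted p = 0.00553) and at -2.76 ± 0.59 with TET2-FLT3 vehicle (edgeR adjusted p = 0.00625). It stood at 1.08 ± 0.62 for AG-221 against vehicle (edgeR adjusted p = 0.248) and 0.69 ± 0.57 for 5-Aza against vehicle (0.668). Against WT it stood at -1.73 ± 0.56 with AG-221 (edgeR adjusted p = 0.125) and -2.07 ± 0.57 with 5-Aza (0.0682). Both passed with the compared groups fitted alone (edgeR adjusted p = 0.0422 and 0.00473). They also passed in DESeq2 (adjusted p = 0.0217 and 0.00403) and limma-voom (adjusted p = 0.00144 and 4.90e-04).

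In FPKM, the authors' read values scaled to library size and transcript length, the order in WT was Tespa1 at 111.1 ± 30.3, Il7r at 15.4 ± 4.85, Rag2 at 4.31 ± 1.39, Rag1 at 2.11 ± 0.734, Satb1 at 1.85 ± 1.06 and Dntt at 1.08 ± 0.251 (SD, n = 4). Rag2 and Rag1 overlapped in WT, as did Rag1 and Satb1, and Satb1 and Dntt. In IDH2-FLT3 vehicle cells Tespa1 had 26.6 ± 17.8 FPKM, Rag2 0.520 ± 0.128 and Il7r 0.212 ± 0.207 (SD, n = 3), so Il7r no longer stood above Rag2. In TET2-FLT3 vehicle cells Rag2 had 1.24 ± 0.754 FPKM and Il7r 0.855 ± 1.03 (SD, n = 4), which overlapped. AG-221 cells had 2.20 ± 1.47 FPKM of Il7r and 0.331 ± 0.194 of Rag2, and 5-Aza cells had 0.429 ± 0.304 of Il7r and 2.09 ± 1.05 of Rag2 (SD, n = 4 each). The order of these 2 genes thus ran opposite ways in the means of the treated groups.

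**Figure D3:**
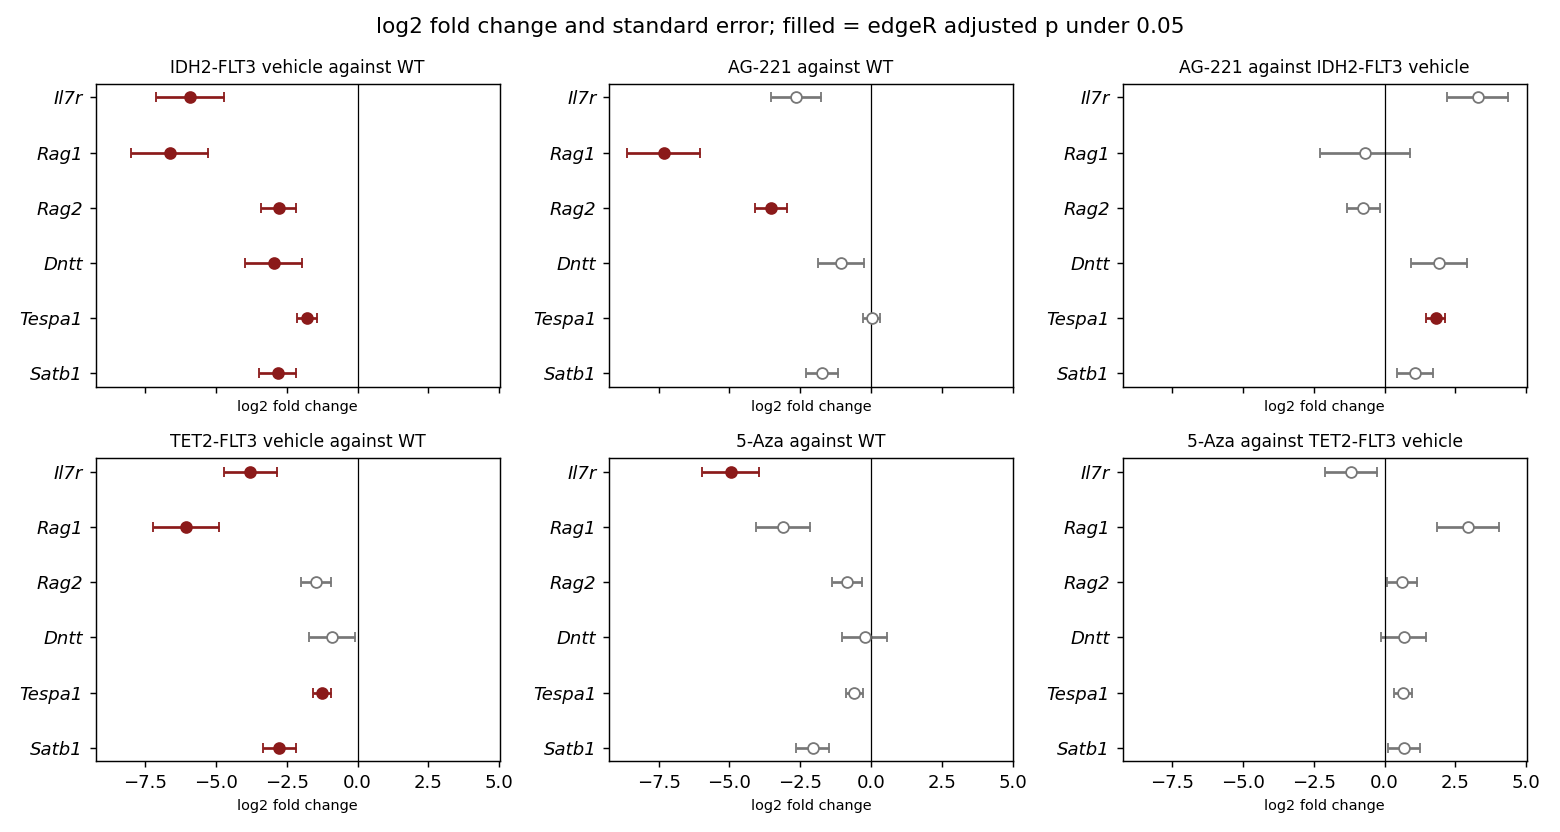
Log2 fold change of each member (points) with its standard error (bars) in 6 comparisons, from the edgeR fit of 19 libraries; filled points passed at an adjusted p under 0.05. All 6 members are filled on the left of 0 for IDH2-FLT3 vehicle against WT, and Tespa1 is the filled point for AG-221 against vehicle.

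Of the 6 members, 6 were called lower in IDH2-FLT3 vehicle against WT, where 10.4% of all 11830 accessions tested were called lower and 20.6% in either direction. All 6 had groups that did not overlap, which held in this direction for 20% of accessions. The median log2 fold change was -2.89 over the members and 0.02 over all accessions. In TET2-FLT3 vehicle against WT 4 members were called lower, against 5.7% of accessions (10.1% in either direction), with medians of -2.11 and 0.07. The 4 called members did not overlap with WT, as 11.5% of accessions did in this direction, while Rag2 and Dntt did overlap.

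In AG-221 against IDH2-FLT3 vehicle 1 member, Tespa1, was called higher, against 4.35% of accessions (9.63% in either direction). It was also the member without overlap, as were 12.9% of accessions in this direction. The medians were 1.44 over the members and -2.26e-04 over all accessions, with 4 members above 0 and Rag1 and Rag2 below it. In 5-Aza against TET2-FLT3 vehicle edgeR called 0 members, as did DESeq2 and limma-voom, against 1.88% of accessions in edgeR. At an unadjusted p under 0.05 there were 2 members, Rag1 and Tespa1, against 12.5% of accessions. The medians were 0.67 and -0.05, with 5 members above 0, and Tespa1 did not overlap, as 2.84% of accessions did in this direction.

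Against WT, AG-221 had 2 members called lower, Rag1 and Rag2, where 1.67% of accessions were (2.71% in either direction), and 5-Aza had 1, Il7r, where 1.08% were (1.7% in either direction). The vehicle and drug comparisons of a line share libraries, as do all comparisons against WT, so these counts are not independent. The Il7r, Rag1, Rag2 and Satb1 libraries did not overlap between AG-221 and WT, and those of Il7r, Rag1, Tespa1 and Satb1 did not overlap between 5-Aza and WT; 8.85% and 13.4% of accessions lay wholly below WT in the AG-221 and 5-Aza comparisons.

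Between the untreated leukemias, IDH2-FLT3 vehicle against TET2-FLT3 vehicle, edgeR called 0 members, as did DESeq2 and limma-voom, against 4.28% of accessions in edgeR. All 6 log2 fold changes were below 0, and 2 members had an unadjusted p under 0.05, against 21% of accessions. They were -2.15 for Il7r, -0.58 for Rag1, -1.32 for Rag2, -2.07 for Dntt, -0.53 for Tespa1 and -0.06 for Satb1, with adjusted p from 0.207 to 0.968. The response to AG-221 minus the response to 5-Aza, fitted as a contrast of its own, gave 0 members in edgeR, DESeq2 and limma-voom, against 0.22% of accessions in edgeR, and 2 members at an unadjusted p under 0.05, against 15.5% of accessions. The difference was 4.46 ± 1.41 for Il7r (edgeR adjusted p = 0.162), 1.14 ± 0.46 for Tespa1 (0.248), 1.24 ± 1.25 for Dntt (0.647), -3.62 ± 2.01 for Rag1 (0.394) and -1.37 ± 0.79 for Rag2 (0.409). Without library V9, the IDH2-FLT3 vehicle library nearest to WT for Il7r, Dntt and Tespa1, those 3 members passed in the difference, with Il7r at 5.59 (edgeR adjusted p = 0.0454) and Tespa1 at 1.81 (0.0107). Calls over everything tested rose as well, to 639 without V9 from 26 in the full fit. Dntt passed too (adjusted p = 0.0272), but with both remaining IDH2-FLT3 vehicle libraries at 0 counts its fold has no fixed size.

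**Figure D4:**
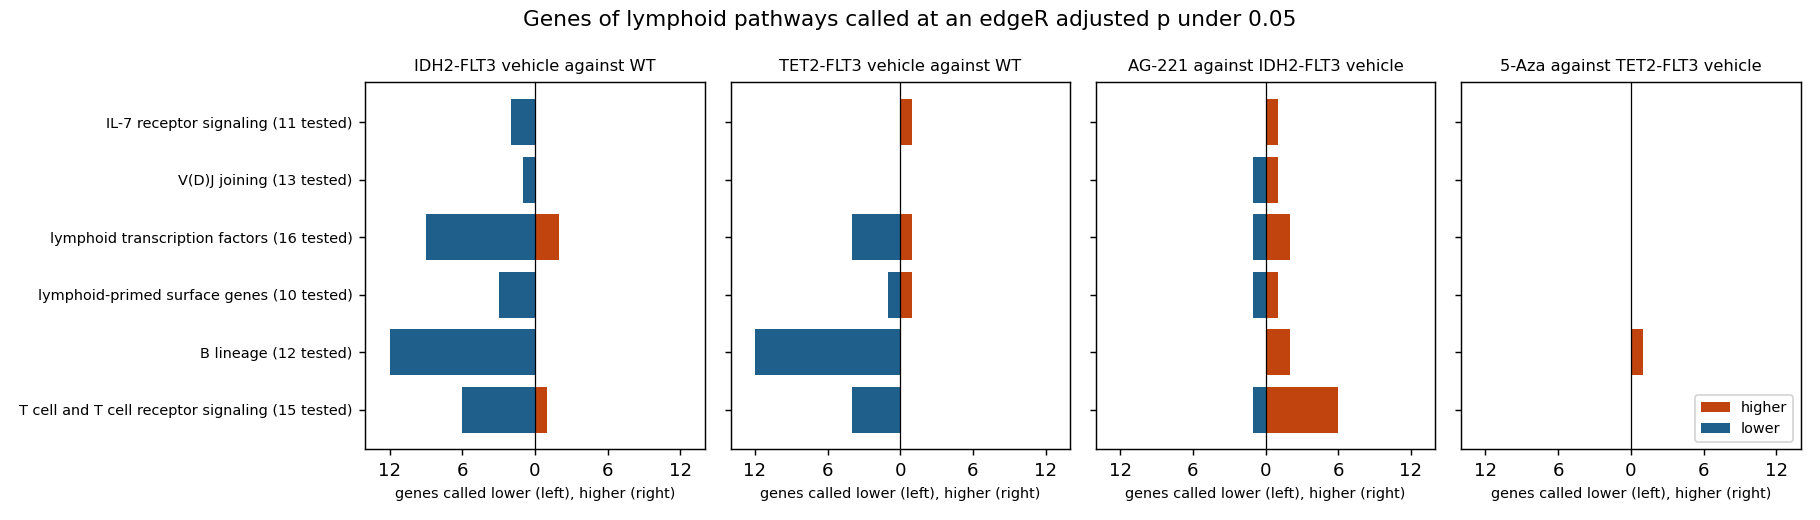
Number of tested genes called lower (left of 0) and higher (right of 0) at an edgeR adjusted p under 0.05 in 6 gene lists around the members, for 4 comparisons. All 12 tested B lineage genes are called lower in both vehicle groups against WT, while IL-7 receptor signaling and V(D)J joining genes show 0 to 2 calls a comparison.

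Genes that act with the members in their pathways were counted by the same test. Of 11 tested genes of IL-7 receptor signaling, 2 were lower in IDH2-FLT3 vehicle than in WT: Il2rg, the common gamma chain that pairs with Il7r, at -1.31 ± 0.43 (edgeR adjusted p = 0.0362), and Jak1, the kinase bound to Il7r, at -0.82 ± 0.26 (0.0341). In TET2-FLT3 vehicle against WT 1 was higher, the STAT5 target Pim1 at 2.24 ± 0.50 (edgeR adjusted p = 0.00900). With AG-221 against vehicle 1 was higher, the feedback inhibitor Socs3 at 2.37 ± 0.65 (edgeR adjusted p = 0.0289), and with 5-Aza 0 of 11 passed. Over all accessions 20.6%, 10.1%, 9.63% and 1.88% were called in these comparisons, so the share of the list was near the background. The same shares are the background for the counts of the lists that follow. The medians of the list were -0.42, -0.13, -0.01 and -0.04 in these comparisons.

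The DNA repair genes that join Rag1 and Rag2 cuts were all tested, 13 of 13, some at low levels such as Polm at 1.84 ± 0.322 CPM with 5-Aza (SD, n = 4). In IDH2-FLT3 vehicle against WT 1 was lower, Xrcc5, the Ku80 subunit that holds broken ends, at -1.49 ± 0.34 (edgeR adjusted p = 0.00524), and in TET2-FLT3 vehicle against WT 0 of 13 passed. With AG-221 Xrcc5 was higher than with vehicle by 1.21 ± 0.34 (edgeR adjusted p = 0.0337) and Polm, a polymerase related to Dntt, was lower, at -1.99 ± 0.51 (0.0240). With 5-Aza 0 of 13 passed, where 1.88% of everything tested did. Of 4 tested relatives and partners of Satb1, 0 passed in each of these 4 comparisons.

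Lymphoid transcription factors had more calls against WT than the lists above. Of 16 tested, 9 were lower and 2 higher in IDH2-FLT3 vehicle than in WT, where 20.6% of everything tested was called. In TET2-FLT3 vehicle against WT 4 were lower and 1 higher, where 10.1% was called. Pax5, which commits cells to the B lineage, averaged 0 CPM in all 3 IDH2-FLT3 vehicle libraries and 0.0103 ± 0.0205 CPM with TET2-FLT3 vehicle (n = 4), against 2.52 ± 0.269 CPM in WT (SD, n = 4). Foxo1, known in mouse pro-B cells as an activator of Il7r and the Rag genes, was lower than WT, at -1.77 ± 0.35 with IDH2-FLT3 vehicle (edgeR adjusted p = 0.00180) and at -1.65 ± 0.31 with TET2-FLT3 vehicle (0.00293). Ikzf2, an Ikaros family member, was lower, at -2.37 ± 0.47 and -1.33 ± 0.41 (edgeR adjusted p = 0.00189 and 0.0431), and Bcl11a, needed for early lymphoid development, was lower, at -2.08 ± 0.46 with IDH2-FLT3 vehicle (0.00392). Spi1, which encodes the myeloid and lymphoid factor PU.1, was higher with IDH2-FLT3 vehicle by 2.64 ± 0.74 (edgeR adjusted p = 0.0168). With AG-221 against vehicle Ikzf2 was higher by 1.74 ± 0.46 (edgeR adjusted p = 0.0266) and Spi1 lower, at -2.74 ± 0.74 (0.0289), among 2 higher and 1 lower in all. With 5-Aza 0 of 16 passed, where 1.88% of everything tested did. Ikzf1, Tcf3 and Runx1, factors central to lymphoid priming, had 0 counts in all libraries over their several accessions and could not be read here.

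Of 10 tested surface genes of lymphoid-primed cells, 3 were lower with IDH2-FLT3 vehicle than in WT. They were Ly6d, which marks B-primed progenitors (-6.52 ± 1.19, edgeR adjusted p = 9.72e-04), the cytokine gene Ltb (-2.55 ± 0.78, 0.0255) and the receptor gene Flt3 (-1.40 ± 0.46, 0.0357). With TET2-FLT3 vehicle Ly6d was lower (-3.78 ± 0.90, edgeR adjusted p = 0.0122) and the homing receptor Cxcr4 higher (1.91 ± 0.56, 0.0358). With AG-221 against vehicle Ly6d was higher by 3.39 ± 1.05 (edgeR adjusted p = 0.0461). With 5-Aza 0 of 10 passed, where 1.88% of everything tested did.

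**Figure D5:**
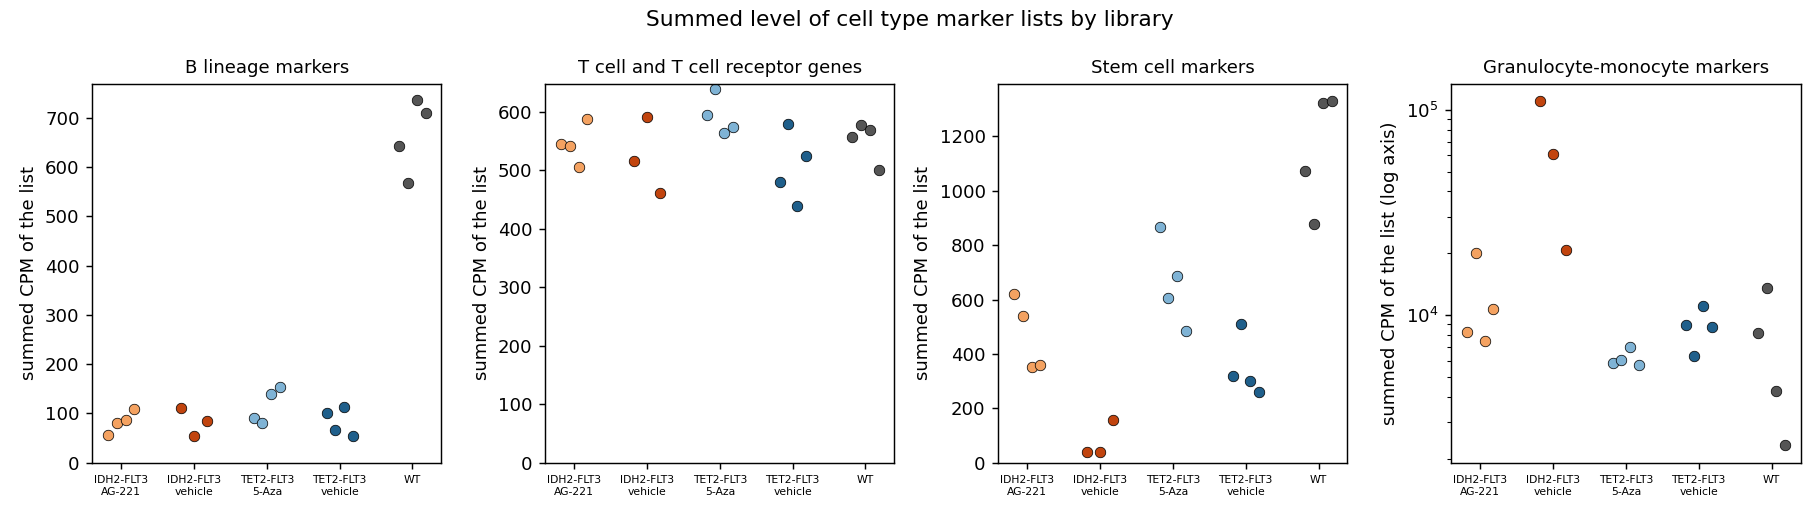
Summed CPM of 4 marker lists in each library (points), with a log axis for the granulocyte-monocyte list and axes from 0 for the others. B lineage sums are 568 to 735 CPM in WT and at most 153 CPM in leukemic libraries, and T cell sums overlap across the 5 groups.

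B lineage markers, early and late, were lower in untreated leukemic cells than in WT cells. All 12 tested B lineage genes of 15 listed were lower in each vehicle group than in WT, and their summed level was 55.3 to 109 CPM with AG-221, 53.7 to 111 CPM with IDH2-FLT3 vehicle, 80.2 to 153 CPM with 5-Aza, 53.6 to 112 CPM with TET2-FLT3 vehicle and 568 to 735 CPM in WT. Cd79a, of the B cell receptor, averaged 1.04 ± 1.19 CPM with AG-221, 0.374 ± 0.251 with IDH2-FLT3 vehicle, 2.26 ± 2.57 with 5-Aza, 0.286 ± 0.0890 with TET2-FLT3 vehicle and 73.9 ± 10.7 in WT (SD, n = 4, 3, 4, 4 and 4). With AG-221 against vehicle 2 were higher, among them Pou2af1, a B cell coactivator, by 5.48 ± 1.35 (edgeR adjusted p = 0.0211), and with 5-Aza against vehicle 1 was higher, Cd79a by 3.02 ± 0.77 (0.0445). Against WT, 10 were lower with AG-221 and 9 with 5-Aza, where 1.67% and 1.08% of everything tested were. The summed levels of the AG-221 and IDH2-FLT3 vehicle libraries covered about the same range. The part of B lineage cells in the levels of the members was not tested.

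Among T cell genes, of 15 tested, 6 were higher and 1 lower with AG-221 than with vehicle, and 6 were lower and 1 higher in IDH2-FLT3 vehicle than in WT. Cd3e, a chain of the T cell receptor complex, averaged 0.864 ± 0.647 CPM with AG-221, 0.0267 ± 0.0463 with IDH2-FLT3 vehicle and 4.04 ± 1.77 in WT (SD, n = 4, 3 and 4), and Lat, an adaptor of T cell receptor signaling, averaged 176 ± 72.4, 32.3 ± 49.0 and 127 ± 11.7 CPM in the same groups. Both were higher with AG-221 than with vehicle, Cd3e by 4.76 ± 1.21 (edgeR adjusted p = 0.0233) and Lat by 2.45 ± 0.72 (0.0380). In TET2-FLT3 vehicle 4 were lower than in WT, and with 5-Aza against vehicle 0 of 15 passed. The summed level of the list, which is dominated by genes that many blood cells use, was 506 to 587 CPM with AG-221, 461 to 592 with IDH2-FLT3 vehicle and 502 to 577 in WT.

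Stem and myeloid markers also differed between the groups. Of 9 tested stem cell genes, 7 were lower in IDH2-FLT3 vehicle than in WT and 6 higher with AG-221 than with vehicle. In TET2-FLT3 vehicle 2 were lower than in WT, and with 5-Aza 1 was higher than with vehicle. The summed level of the stem cell list was 353 to 620 CPM with AG-221 and 37.9 to 157 with IDH2-FLT3 vehicle. It was 485 to 866 with 5-Aza, 261.3 to 511 with TET2-FLT3 vehicle and 879 to 1330 in WT. All 10 tested granulocyte-monocyte genes were higher in IDH2-FLT3 vehicle than in WT and 6 were lower with AG-221 than with vehicle. In TET2-FLT3 vehicle against WT 1 was higher, Ctsg, and with 5-Aza against vehicle 0 passed. Their summed level was 7515 to 20118 CPM with AG-221, 20723 to 110590 with IDH2-FLT3 vehicle, 5723 to 7014 with 5-Aza, 6301 to 11086 with TET2-FLT3 vehicle and 2316 to 13558 in WT. The part of this shift in cell type markers in the levels of the members was not tested.

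Members did not all vary alike between libraries. Over 19 libraries, which fall into 5 groups whose means differ, Pearson's r of log2 CPM was 0.76 for Rag1 with Rag2 and 0.70 for Il7r with Rag1, the 2 highest pairs, and 0.21 for Rag2 with Tespa1, the lowest. Within groups, after each library's group mean was taken off, r was 0.31 for Rag1 with Rag2, 0.65 for Il7r with Rag2 and -0.41 for Il7r with Satb1. Libraries share depth and composition, and these values are descriptions. The gene most like each member over 19 libraries, among 10557 searched, was Ly6d for Il7r (r = 0.90), Vpreb3, a gene of the B lineage list, for Rag1 (r = 0.93), Sh2d4a for Rag2 (r = 0.86), Pygm for Dntt (r = 0.89), Mettl27 for Tespa1 (r = 0.95) and Flrt1 for Satb1 (r = 0.93). The surrogate light chain gene Igll1 was among the 3 nearest for both Rag1 (r = 0.91) and Rag2 (r = 0.85), while Car2, a gene of the erythroid marker list, was among those of Tespa1 (r = 0.93).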

How the data were processed

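RNA from sorted LSK cells was read with a SMARTer low-input kit, per the labels' protocols. Reads were processed by the authors with STAR 2.4.0f1 and Subread 1.4.5-p1 (featureCounts) on build mm9, per the submitters' processing notes; the strand setting is not given in the sources used here. The deposited tables hold raw counts and the authors' FPKM values per accession for 19 libraries, and 0 columns were left out. FPKM was used to compare levels between genes, and CPM was computed here from the counts, the library totals and the TMM factors. Of 33862 accessions, 33485 took a symbol from RefSeq and 188 from GENCODE; 189 unnamed ones held 3.47% of counts and were tested too.

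Groups came from the labels through the column headers. One edgeR 4.0.16 quasi-likelihood fit of 5 group means (R 4.3.3, TMM factors, 11830 accessions past filterByExpr, 14 residual degrees of freedom, Benjamini-Hochberg adjustment, threshold 0.05) gave every test, and a log2 fold change is the first group named minus the second. The script was tested on simulated data. Alternatives were RLE factors, no filter, a filter of 5 CPM in 3 libraries, a fit of only the groups compared, DESeq2 1.42.0, limma 3.58.1 with voom weights, summed accessions, the columns ending in -2 summed with their namesakes, and each library left out. No libraries agreed within sampling noise: the lowest chi-square per accession was 15.9. Library totals ran from 9635795 to 20383132 counts, so a value under 1 CPM rests on few counts.

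Members, gene lists and markers were chosen with earlier results of these data known. The genes named were the members, up to 4 genes of each list with the smallest p in IDH2-FLT3 vehicle against WT, up to 2 in TET2-FLT3 vehicle against WT and in each drug comparison, the sort markers, and the 3 genes with the highest correlation with each member; Lat, Ikzf1, Tcf3, Runx1, Tfrc and Iftap were added after their values were seen. Some genes that the rule named are not reported here. Motif words were searched in RefSeq start windows of GRCm38.p6, whose coordinates are not those of mm9.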

Additional observations from a re-analysis of the deposited data

Results flagged for a closer look

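In each group of 4 libraries, a single library far from the others was looked for by Dixon's test at its 95% level, which marks about 1 in 20 groups by chance. Of 24 groups of member values tested, 3 were marked. Rag1 in AG-221 library AG1 had 0.302 CPM, from 3 counts, while the other AG-221 libraries had 0. With the others at 0 any count is marked, so the rate of 1 in 20 does not apply to this group. Tespa1 in AG-221 library AG8 had 240.5 CPM, while the other AG-221 libraries had 137.8 to 149 CPM. Satb1 in TET2-FLT3 vehicle library V19 had 3.55 CPM, while the other libraries of that group had 0.682 to 0.902 CPM.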

How the results depend on the processing

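Of 779 refitted log2 fold changes of members, 723 kept their direction and their side of the threshold, 25 newly passed, 16 no longer passed and 15 changed sign; the cause was not tested. For IDH2-FLT3 vehicle against WT the count of 6 members became 5 with the compared groups alone and with the -2 columns summed, where Dntt no longer passed, 5 under the stricter filter, which left Dntt untested, and 5 to 6 with single libraries left out. For TET2-FLT3 vehicle against WT the count of 4 became 3 with no filter and 5 in DESeq2 and limma-voom. For 5-Aza against WT the count of 1 became 0 with no filter, 4 with the compared groups alone, 2 in DESeq2 and 5 in limma-voom, and 0 to 1 with single libraries left out. For AG-221 against IDH2-FLT3 vehicle the count of 1 became 0 with the compared groups alone, 2 in DESeq2 and 0 to 3 with single libraries left out (0 without V3, 3 without V9). With the compared groups alone this comparison had 0 calls over everything tested. For AG-221 against WT the count of 2 became 4 with the compared groups alone and 4 in limma-voom, and in DESeq2 Satb1 passed as well. With single libraries left out, TET2-FLT3 vehicle against WT had 2 to 5 (2 without wt4), IDH2-FLT3 vehicle against TET2-FLT3 vehicle 0 to 2 and the difference of the drug responses 0 to 3, both highest without V9. Leaving out V9 also raised the calls over everything tested, from 26 to 639 for the difference and from 1139 to 2247 for AG-221 against vehicle. In all settings run in which they were tested, Rag1 and Satb1 were lower than WT in both vehicle groups, Il7r, Rag2 and Tespa1 in IDH2-FLT3 vehicle, and Rag1 and Rag2 with AG-221.

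Sign changes were in values that had not passed. In limma-voom they were Il7r at 1.18 and Dntt at -0.24 for 5-Aza against vehicle, Tespa1 at -0.0074 for AG-221 against WT, and Il7r at 0.13 and Rag1 at 0.23 between the vehicle groups. With single libraries left out they were Rag1 for AG-221 against vehicle (-3.73 to 1.0), Satb1 in the difference of the drug responses (-0.45 to 0.82), Tespa1 for AG-221 against WT (-0.20 to 0.21), Il7r for 5-Aza against vehicle (-1.66 to 0.31), Rag1 (-2.27 to 0.12) and Satb1 (-0.26 to 0.78) between the vehicle groups, and Dntt for 5-Aza against WT (-0.52 to 0.14).

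Accessions called ranged from 1271 to 3425 for IDH2-FLT3 vehicle against WT (2433 as reported), 495 to 1928 for TET2-FLT3 vehicle against WT (1200), 0 to 2247 for AG-221 against vehicle (1139), 58 to 462 for 5-Aza against vehicle (222), 169 to 2106 for AG-221 against WT (321), 77 to 2730 for 5-Aza against WT (201), 14 to 1659 between the vehicle groups (506) and 0 to 639 for the difference of the drug responses (26). No paired analysis was possible because, apart from WT, the column numbers as a whole cannot be mapped to the replicate numbers in the labels. Rag1 and Dntt held at most 45 and 30 counts in a leukemic library, which limits what can be seen of their differences there.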

Other observations

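Genes of plasmacytoid dendritic cells, a lineage that shares Rag and Dntt expression with lymphoid progenitors, did not move as a block. Of 8 tested, 4 were lower and 1 higher in IDH2-FLT3 vehicle than in WT, and 2 were lower and 2 higher in TET2-FLT3 vehicle. Cox6a2 averaged 1.20 ± 1.12 CPM with IDH2-FLT3 vehicle (n = 3) and 1.42 ± 0.868 with TET2-FLT3 vehicle (n = 4), against 31.0 ± 2.36 in WT (SD, n = 4), and was lower in both (log2 fold changes -4.71 and -4.44, edgeR adjusted p = 3.05e-04 and 2.90e-04). Tlr9, the DNA sensor, was lower with AG-221 than with IDH2-FLT3 vehicle (-3.56, edgeR adjusted p = 0.0398) and lower with 5-Aza than with TET2-FLT3 vehicle (-4.71, edgeR adjusted p = 0.0273).

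Red cell genes, of which Car2 followed Tespa1 over the libraries, were mostly lower in both untreated leukemias. Of 10 tested, 9 were lower than in WT in each vehicle group, and the other, the transferrin receptor gene Tfrc, was higher in IDH2-FLT3 vehicle (0.94 ± 0.24, edgeR adjusted p = 0.00989). With AG-221 against vehicle 3 were higher and 1, Tfrc, lower, and with 5-Aza against vehicle 5 were higher. Gata1, the red cell master factor, averaged 19.1 ± 9.55 CPM with 5-Aza, against 1.79 ± 0.716 CPM with TET2-FLT3 vehicle (SD, n = 4 each; log2 fold change 3.37, edgeR adjusted p = 0.00240).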
